A study of Mus musculus with 35 samples.

Results

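The genes of MHC class I (MHC-I) were followed in RNA sequencing libraries of myeloid-derived suppressor cells (MDSC) and of bulk tumor from mice with pancreatic tumors. The group was chosen by gene name and matched by Ensembl identifier, and holds 10 of the 53379 genes counted. Of these, 2 encode the classical heavy chains (H2-K1 and H2-D1), 7 encode non-classical heavy chains (H2-Q4, H2-Q6, H2-Q7, H2-T22, H2-T23, H2-T24 and H2-M3), and B2m encodes the light chain. Female wild type C57BL/6 mice carried T110299 tumors in the pancreas. T110299 is a mouse pancreatic cancer cell line, and the host mice themselves carried no genetic change. On day 18 and day 20 after tumor induction mice received 50 µg poly(I:C) in a complex with polyethylenimine (poly(I:C)c) intravenously. The protocol names glucose as the control treatment, while the labels of the control samples read untreated, the word used here. Poly(I:C) imitates the double-stranded RNA of viruses. Polymorphonuclear PMN-MDSC (CD11b+ Ly6Clo Ly6G+) and monocytic M-MDSC (CD11b+ Ly6Chi Ly6G-) were sorted from spleen and from tumor of both treatments, and bulk tumor was taken from untreated mice alone. This gave 9 groups of 3 or 4 libraries. A tumor M-MDSC library of treated mice with 10 counts was left out, so that 34 of 35 libraries were used, 30 of MDSC and 4 of bulk tumor.

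An MHC-I molecule is a heavy chain held together with the light chain B2m, and most heavy chains carry a short peptide to the cell surface. Classical heavy chains differ between strains and show peptides of the cell's own proteins to CD8 T cells. Non-classical heavy chains differ little between strains and have narrower tasks. The H2-Q6 and H2-Q7 genes encode forms of the Qa-2 antigen. The H2-T23 product is Qa-1, which shows a leader peptide of other class I chains to an inhibitory receptor of NK cells, the H2-T22 product is bound by some gamma-delta T cells, and the H2-M3 product shows peptides that begin with formyl-methionine, as those of bacteria do. Class I genes are well-known targets of interferons, and their promoters commonly hold an interferon response element beside an NF-kB site.

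The stretches of promoter that hold these motifs are shown because these genes are compared below under a treatment known to induce interferon. Windows from 250 bases before to 50 bases after the gene start came from RefSeq on build GRCm38.p6, where 9 of the 10 genes had an entry (H2-T24 had none). Both strands were searched for GAANNGAAA and GAAANNGAA, 2 spellings of the interferon response type, and for GGGANTNCC, the NF-kB type. Capitals mark a match, and a match on the opposite strand reads in reverse complement. Each stretch is written 5′ to 3′ on the strand of the gene.
H2-K1: GGGATTCCCcatctccacagTTTCACTTC
H2-D1: GGGATTCCCcatctcctcagTTTCACTTC
H2-Q4: GGGATTTCCcatctccccagTTTCACTTC
H2-Q6: GGGATTCCCcatctccccagTTTCACTTC
H2-Q7: GGGATTCCCatctccccagTTTCACTTC
H2-T22: ggcttagtTTCACTTTCgaatcccc
H2-T23: ctactgctTTCTCTTTCataaagac
H2-M3: ctctgaggTTTCACTTCtctgtaac
B2m: aagaacatGAAACTGAAaatgggaa

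On chromosome 17 these stretches lie at chr17:34000429-34000457 for H2-K1 (minus strand), chr17:35262924-35262952 for H2-D1, chr17:35379444-35379472 for H2-Q4, chr17:35424678-35424706 for H2-Q6, chr17:35439023-35439050 for H2-Q7, chr17:36042916-36042940 for H2-T22 (minus strand), chr17:36032808-36032832 for H2-T23 (minus strand) and chr17:37270125-37270149 for H2-M3. That of B2m lies on chromosome 2 at chr2:122147540-122147564. The stretches of H2-D1 and H2-T23 fall inside an exon that GENCODE M21 gives to the same gene, and the other 7 lie outside the exons of their gene. RefSeq gave H2-K1 a second start, whose window holds the same stretch (bases -124 to -96 from that start), so that the 9 genes had 10 windows. An interferon response match was found for 9 of 9 genes, and 14.8% of all 32851 RefSeq windows hold one. An NF-kB type match was found for 5 genes (H2-K1, H2-D1, H2-Q4, H2-Q6 and H2-Q7), against 3.95% of all windows. In these 5 the motifs stand side by side in the same order. A match is a run of letters, and no binding was measured. All 9 heavy chain genes lie on chromosome 17 between H2-K1 (chr17:33996017-34000347) and H2-M3 (chr17:37270220-37274484), and B2m lies at chr2:122147686-122153083 (GRCm38, GENCODE M21). Each of the 10 is annotated as protein coding.

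**Figure D1:**
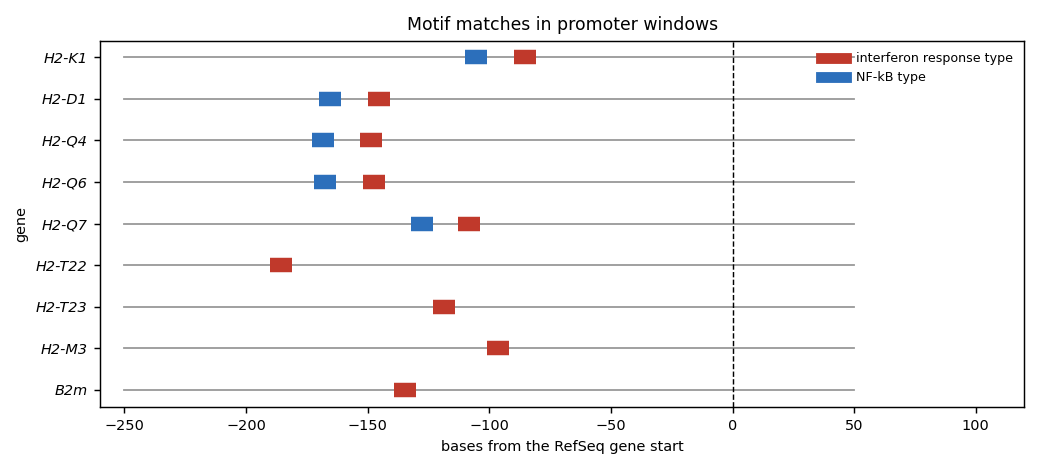
Position of motif matches in the RefSeq windows of 9 class I genes (for H2-K1 at 1 of its 2 starts), in bases from the gene start (dashed line); grey lines show the window searched. Every window holds an interferon response match (red), and those of H2-K1, H2-D1, H2-Q4, H2-Q6 and H2-Q7 hold an NF-kB type match (blue) just upstream of it.

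MDSC libraries held 793070 to 4357105 counts and bulk tumor libraries 3771590 to 8886115. The sorted cells were checked against marker genes. Splenic PMN-MDSC held summed neutrophil markers (11 genes) of 26732 to 51644 CPM (counts scaled to a common library size) untreated and 56427 to 105936 treated. In PMN-MDSC from tumor that sum was lower, 1461 to 5148 untreated and 4270 to 12954 treated, with Ly6g, the marker of the gate, at 0 to 8.99 and at 5.05 to 86.5 CPM, while the 8 macrophage markers summed to 10321 to 13328 and 8979 to 18063. These libraries are called tumor PMN-MDSC by their label, although macrophage markers exceeded neutrophil markers in all 4 untreated and in 3 of the 4 treated ones. In M-MDSC the 7 monocyte markers summed to 4992 to 7617 in spleen and 8849 to 11706 in tumor of untreated mice, and to 2659 to 4145 and 2368 to 4672 after treatment. Treated splenic M-MDSC library 4 held 17696 CPM of B cell markers against 162 to 522 in the other 3, and in all 3 treated tumor M-MDSC libraries macrophage markers (5101, 26815 and 10670 CPM) exceeded monocyte markers (4672, 2368 and 2682), with Ly6c2 at 2.71 in library 2. Since heavy chains resemble one another, reads may be shared. Of all 50-base stretches of the transcripts, 34.5% in H2-T22, 32% in H2-Q6, 26.4% in H2-Q7, 21.8% in H2-Q4, 13.6% in H2-T23, 12.8% in H2-D1, 9.63% in H2-K1, 3.17% in H2-T24 and 0.576% in H2-M3 occur in another gene (for H2-T22 mostly in H2-T10), and 0% in B2m. These shares describe sequence alone, and the reads assigned to a wrong gene were not measured. Values of the H2-Q genes and of H2-T22 are therefore uncertain by an unknown amount. H2-Q4 and H2-T22 also overlap a gene on the opposite strand, which the strand-specific counting separates.

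Per length, B2m, H2-D1 and H2-K1 were the most abundant members. Levels are given as FPKM, which are CPM divided by the exon length in kilobases, where genes are compared, and as CPM within a gene, both scaled over the 34 libraries. Mean FPKM over the 8 MDSC groups ran from 727 to 2528 for B2m, from 421 to 1955 for H2-D1 and from 193 to 950.0 for H2-K1. Among non-classical genes it ran from 17.4 to 442 for H2-T24, 6.13 to 309 for H2-Q6, 24.5 to 239.7 for H2-Q4, 30.8 to 149 for H2-T23, 10.8 to 107 for H2-T22, 6.12 to 105 for H2-Q7 and 10.156 to 44.3 for H2-M3. Splenic PMN-MDSC of treated mice held the highest mean for 9 of 10 members, and treated tumor M-MDSC for H2-M3. The ratio of the highest to the lowest MDSC group mean in CPM was 50.5 for H2-Q6, 25.4 for H2-T24 and 17.2 for H2-Q7, and between 3.48 and 9.90 for the other 7. For 7 members (H2-K1, the 3 H2-Q genes, H2-T22, H2-M3 and B2m) the 4 treated groups held the first 4 places, and for 6 of these, all but H2-M3, the lowest treated group did not overlap the highest untreated one. The share of all genes with such an order was not computed. Neighbours within the treated and within the untreated MDSC groups mostly overlapped, and for H2-K1, H2-Q4, H2-M3 and B2m every such pair did. H2-D1, H2-T23 and H2-T24 had another order, since untreated splenic PMN-MDSC stood among the treated groups.

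**Figure D2:**
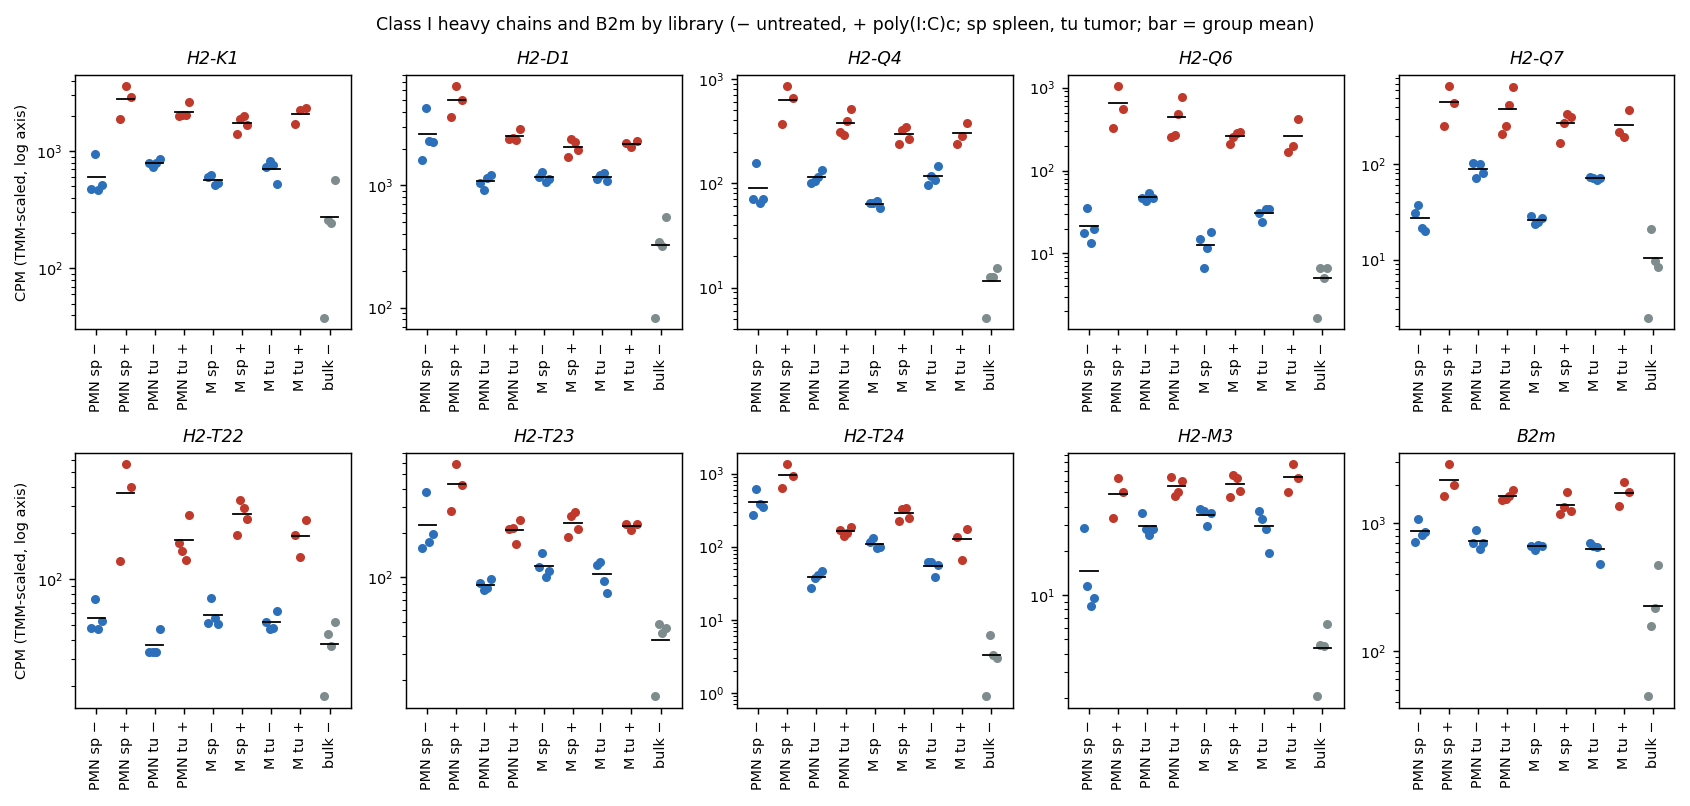
CPM of each member by library on log axes; blue points are untreated, red points poly(I:C)c-treated and grey points bulk tumor libraries, and the bar is the group mean. Treated libraries lie above untreated ones of the same cells except in splenic PMN-MDSC for H2-D1 and H2-T23, where the groups overlap.

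To ask how treatment changed MHC-I transcripts in each MDSC population, treated and untreated libraries were compared with edgeR, and a gene was called at an adjusted p under 0.05 over all genes tested. Every member had a fold change above 1 in all 4 populations, and 0 were called lower. In PMN-MDSC from spleen 7 of 10 were called higher, where 6.10% of all tested genes were called higher and 5.52% lower. In PMN-MDSC from tumor 10 of 10 were called higher (all genes 2.29% higher, 1.07% lower). In M-MDSC from spleen 10 of 10 were called higher (10.7% higher, 8.96% lower), and in M-MDSC from tumor 8 of 10 (1.82% higher, 1.06% lower). The median log2 fold change of the members was 1.99, 1.55, 1.47 and 1.42 in this order, against 0.01, 0.01, -0.01 and 0.00 over all genes tested. Treated libraries stood above all untreated ones for 8 members in splenic PMN-MDSC (10.8% of all genes), 10 in tumor PMN-MDSC (6.95%), 10 in splenic M-MDSC (13.4%) and 10 in tumor M-MDSC (10.0%). The study set its threshold, an adjusted p under 0.001 with at least a 2-fold change, on DESeq2 values. Applied to edgeR values it was passed by 0, 3, 7 and 0 members, and by 0.0413%, 0.241%, 2.47% and 0.0120% of all genes. These counts are therefore not those of the study's own test. DESeq2 called 10 members in each of the 4 populations, and the share of all genes that it called was not computed. With tumor M-MDSC library 3 of the treated or library 1 or 3 of the untreated mice left out, 3 members were called there, 4 without untreated library 2 and 5 without untreated library 4. In the other 3 populations the count stayed at 6 to 9, 8 to 10 and 10 with any 1 library left out.

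Markers of other cells moved with treatment as well, and every list whose summed level did not overlap between untreated and treated libraries is given here, in CPM and in that order. In splenic PMN-MDSC 5 of 11 neutrophil markers were called higher (26733 to 51644 and 56427 to 105936) and 7 of 8 macrophage markers lower (710.2 to 2130.2 and 259 to 359). Lower sums without overlap were also those of dendritic cells (300.0 to 411 and 11.7 to 97.7), erythroid cells (69.8 to 188 and 0.508 to 9.62), T and NK cells (13.7 to 20.7 and 3.56 to 8.93) and endothelium (30.6 to 75.0 and 13.1 to 25.01), and 3 of 5 monocyte markers tested were called lower and 1 higher. In tumor PMN-MDSC the sums of monocytes (4502 to 8337 and 1481 to 2764) and B cells (55.9 to 109 and 19.5 to 53.0) were lower, while those of neutrophils overlapped (1461 to 5148 and 4270 to 12954). Of the 7 monocyte markers 2 (Ly6c2 and Ms4a4c) were called higher in these libraries and 2 lower. In splenic M-MDSC monocytes (4992 to 7617 and 2659 to 4145) and erythroid cells (23.6 to 47.6 and 0.608 to 2.69) were lower, and endothelium (19.6 to 28.4 and 110.3 to 269) and fibroblasts (2.36 to 4.37 and 4.499 to 8.21) higher. Although the monocyte sum was lower there, 2 of 7 monocyte markers (Ly6c2 and Ms4a4c) were called higher and 3 lower. In tumor M-MDSC monocytes (8849 to 11706 and 2368 to 4672) and epithelial tumor cells (98.5 to 321 and 68.5 to 96.5) were lower, dendritic cells (79.9 to 119 and 146 to 581) and endothelium (20.6 to 42.8 and 70.7 to 143) higher, and macrophages overlapped (3458 to 8062 and 5101 to 26815). The part of these shifts in the MHC-I values was not tested. Libraries are numbered here in the order of their columns, and no column of sorted cells states a mouse number. The p-values measure the spread between libraries. Sample titles use the same numbers across organs and cell types, so libraries of 1 treatment may share mice, and the fits treat them as independent.

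Of the classical heavy chains, H2-K1 rose in all 4 populations. Untreated splenic PMN-MDSC held 473, 939, 469 and 510.2 CPM and treated ones 1889.7, 3592 and 2892, a 4.82-fold rise (log2 fold change 2.27 ± 0.30, adjusted p = 0.00391, SE). Untreated library 2 stood apart from the other 3, and the groups did not overlap. In tumor PMN-MDSC H2-K1 went from 792, 739, 796 and 856 to 1997, 2051, 2027 and 2607 CPM (2.67-fold, log2 fold change 1.42 ± 0.19, adjusted p = 0.00193). In splenic M-MDSC it went from 601, 620.2, 514 and 534 to 1398, 1879, 2004 and 1686 CPM (3.01-fold, log2 fold change 1.59 ± 0.14, adjusted p = 0.000112). In tumor M-MDSC it went from 728, 829, 757 and 525 to 1695, 2225 and 2356 CPM (2.94-fold, log2 fold change 1.55 ± 0.24, adjusted p = 0.0149). Every treated library lay above every untreated one in each population. Without untreated library 1 or 3 or treated library 3 the tumor M-MDSC call was lost (log2 fold change 1.57, 1.61 and 1.46, adjusted p = 0.0633, 0.0607 and 0.0635).

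H2-D1, the more abundant classical gene, rose less, by 2.29-fold in tumor PMN-MDSC, 1.74-fold in splenic M-MDSC and 1.85-fold in tumor M-MDSC. Tumor PMN-MDSC held 1041, 926, 1159.7 and 1213 CPM untreated and 2385, 2434, 2358 and 2924 treated (log2 fold change 1.19 ± 0.19, adjusted p = 0.00596). Splenic M-MDSC held 1181, 1293, 1075 and 1133 and 1705, 2406, 2284 and 1935 CPM (log2 fold change 0.80 ± 0.14, adjusted p = 0.00347), and tumor M-MDSC 1137, 1228, 1276 and 1080.3 and 2219, 2052 and 2319.7 CPM (log2 fold change 0.89 ± 0.19, adjusted p = 0.0447). These groups did not overlap, yet the last call was lost without any of the 4 untreated libraries or treated library 3 (adjusted p 0.0839 to 0.153). In splenic PMN-MDSC H2-D1 stood at 1620.0, 4317, 2311 and 2258 CPM untreated and 3628, 6511 and 4986 treated and was not called (log2 fold change 0.99 ± 0.32, adjusted p = 0.0828). Untreated library 2 lay inside the treated range there. Without it the value was 1.29 with an adjusted p of 0.0234, and DESeq2 gave 1.003 with 0.0165. The fit over the 4 PMN-MDSC groups gave 0.95 with 0.0243.

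Among the H2-Q genes, which encode Qa-2 forms and relatives, H2-Q6 had the largest fold change of all members in each of the 4 populations. It rose 31.1-fold in splenic PMN-MDSC, 9.20-fold in tumor PMN-MDSC, 19.5-fold in splenic M-MDSC and 8.51-fold in tumor M-MDSC. Splenic PMN-MDSC held 17.9, 35.3, 13.3 and 19.5 CPM untreated and 329.8, 1045 and 561 treated (log2 fold change 4.96 ± 0.44, adjusted p = 0.00126). Splenic M-MDSC held 14.9, 6.69, 11.5 and 18.1 and 208, 255, 287 and 290.2 CPM (log2 fold change 4.28 ± 0.27, adjusted p = 2.47e-05), so the lowest treated library held more than 10 times the highest untreated one. Tumor PMN-MDSC held 46.9, 42.5, 53.6 and 46.6 and 257, 272, 480.4 and 780.4 CPM (log2 fold change 3.20 ± 0.34, adjusted p = 0.000846). Tumor M-MDSC held 30.6, 23.7, 33.9 and 34.7 and 166, 200.3 and 421 CPM (log2 fold change 3.09 ± 0.34, adjusted p = 0.0043). In both tumor populations the treated libraries spread widely and still lay above all untreated ones.

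H2-Q7 rose as well, 16.7-fold, 4.18-fold, 10.199-fold and 3.61-fold in the same order. Splenic PMN-MDSC held 30.6, 37.4, 21.4 and 19.9 CPM untreated and 250.2, 659.9 and 436 treated (log2 fold change 4.06 ± 0.35, adjusted p = 0.00126), and splenic M-MDSC 28.9, 23.6, 24.7 and 27.3 and 169, 271, 333 and 315 CPM (log2 fold change 3.35 ± 0.22, adjusted p = 2.47e-05). Tumor libraries started higher, at 102, 71.2, 99.3 and 80.6 CPM in untreated PMN-MDSC against 208, 252, 417 and 639 treated (log2 fold change 2.06 ± 0.33, adjusted p = 0.00602). Tumor M-MDSC held 72.8, 71.2, 68.6 and 71.9 and 216, 192 and 366 CPM (log2 fold change 1.85 ± 0.24, adjusted p = 0.00873). H2-Q4 rose 7.14-fold (64.5 to 155 untreated and 367 to 849.8 CPM treated) in splenic PMN-MDSC, 3.23-fold (101 to 133 untreated and 287 to 516 treated) in tumor PMN-MDSC, 4.53-fold (57.9 to 67.3 untreated and 238 to 347 treated) in splenic M-MDSC and 2.58-fold (95.8 to 146 untreated and 236 to 378 treated) in tumor M-MDSC (adjusted p = 0.00368, 0.00134, 2.19e-05 and 0.0198). No treated library overlapped an untreated one for either gene. The tumor M-MDSC call of H2-Q4 was lost without untreated library 1, 2 or 3 or treated library 3 (adjusted p 0.0600 to 0.0793).

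Among the H2-T genes, H2-T22, a ligand of gamma-delta T cells, rose 6.71-fold, 4.78-fold, 4.46-fold and 3.69-fold. Its CPM were 47.9, 74.1, 47.2 and 53.3 untreated and 132, 562 and 402 treated in splenic PMN-MDSC (log2 fold change 2.75 ± 0.41, adjusted p = 0.00595). Tumor PMN-MDSC went from 33.4, 33.7, 33.6 and 47.0 to 173, 152, 134 and 263 CPM (log2 fold change 2.26 ± 0.23, adjusted p = 0.000621). Splenic M-MDSC held 50.8 to 75.9 CPM untreated and 194 to 331 treated (log2 fold change 2.16 ± 0.19, adjusted p = 9.41e-05) and tumor M-MDSC 47.5 to 61.7 and 139.5 to 245 CPM (log2 fold change 1.88 ± 0.22, adjusted p = 0.00637). Treated library 1 of splenic PMN-MDSC was well below the other 2, but above all untreated libraries. H2-T23, which encodes Qa-1, rose 2.32-fold in tumor PMN-MDSC (81.7 to 97.9 untreated and 168 to 246 treated CPM, log2 fold change 1.22 ± 0.16, adjusted p = 0.00198), 1.94-fold in splenic M-MDSC (101 to 146 untreated and 189 to 278 treated CPM, log2 fold change 0.96 ± 0.15, adjusted p = 0.0026) and 2.11-fold in tumor M-MDSC (78.4 to 127 untreated and 209.9 to 230.3 treated CPM, log2 fold change 1.08 ± 0.20, adjusted p = 0.0296). In splenic PMN-MDSC it was not called, with 157, 379, 174 and 197 CPM untreated and 282, 585 and 422 treated (log2 fold change 0.97 ± 0.32, adjusted p = 0.0875). As for H2-D1, untreated library 2 overlapped the treated range, and the value without it was 1.29 (adjusted p = 0.0206). The fit over the 4 PMN-MDSC groups gave 0.94 (0.0227). The call in tumor M-MDSC was lost without any untreated library or treated library 3 (adjusted p 0.0526 to 0.112).

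H2-T24 rose 2.46-fold in splenic PMN-MDSC, where it was already high. Untreated libraries held 273, 611, 383 and 353 CPM and treated ones 629.9, 1336 and 929 (log2 fold change 1.30 ± 0.30, adjusted p = 0.0266). Its groups were next to each other without overlap, and the call was lost without untreated library 1, 3 or 4 or treated library 2 or 3 (adjusted p 0.0680 to 0.0898). In tumor PMN-MDSC it went from 27.5, 37.0, 40.7 and 47.0 to 169, 140.3, 155 and 188 CPM (4.20-fold, log2 fold change 2.07 ± 0.19, adjusted p = 0.000369). In splenic M-MDSC it went from 117, 130.2, 94.8 and 97.6 to 222, 331, 343 and 243 CPM (2.54-fold, log2 fold change 1.34 ± 0.17, adjusted p = 0.00065). In tumor M-MDSC it stood at 61.8, 62.0, 38.4 and 56.5 CPM untreated and 135, 66.2 and 176 treated and was not called (log2 fold change 1.20 ± 0.33, adjusted p = 0.0774). Treated library 2, the one with the high macrophage markers, was the lowest of the 3, just above the untreated libraries, and without it the value was 1.52 (adjusted p = 0.0114). The fit over the 4 M-MDSC groups gave 1.21 (0.0133).

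H2-M3, which presents formylated peptides, held the lowest mean FPKM of the members in each of the 4 treated groups. It rose 1.84-fold in tumor PMN-MDSC, from 36.3, 28.2, 25.8 and 28.3 to 64.0, 47.4, 50.1 and 59.6 CPM (log2 fold change 0.88 ± 0.18, adjusted p = 0.0276), and 1.57-fold in splenic M-MDSC, from 38.5, 37.4, 29.4 and 36.1 to 46.4, 65.7, 62.9 and 51.4 CPM (log2 fold change 0.65 ± 0.14, adjusted p = 0.0107). The first call was lost without untreated library 2, 3 or 4 or treated library 1 (adjusted p 0.0634 to 0.101) and in the fit over the 4 PMN-MDSC groups (0.193). In splenic PMN-MDSC it held 28.9, 11.5, 8.47 and 9.58 CPM untreated and 33.2, 63.1 and 50.3 treated (log2 fold change 1.71 ± 0.48, adjusted p = 0.0534), and in tumor M-MDSC 37.2, 33.0, 28.1 and 19.3 and 50.4, 77.5 and 63.0 CPM (log2 fold change 1.09 ± 0.25, adjusted p = 0.0537). Neither was called, although the libraries did not overlap. In the fit over the 4 groups of each cell type both were called (adjusted p = 0.0033 and 0.0054). In splenic PMN-MDSC untreated library 1 held the most, and without it the value was 2.37 (adjusted p = 0.00742). Without treated library 1 the values were 1.90 (0.0483) in splenic PMN-MDSC and 1.24 (0.0365) in tumor M-MDSC.

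The light chain B2m rose in all 4 populations, by 2.05-fold to 2.77-fold. Splenic PMN-MDSC held 718, 1085, 813 and 853 CPM untreated and 1631, 2894 and 1996 treated (2.57-fold, log2 fold change 1.36 ± 0.22, adjusted p = 0.00881). Tumor PMN-MDSC held 696, 881, 629 and 707 and 1514, 1551, 1631 and 1826 CPM (2.19-fold, log2 fold change 1.13 ± 0.19, adjusted p = 0.00755). Treated libraries lay above untreated ones in both. Splenic M-MDSC held 667, 619.8, 683 and 671 and 1186, 1338, 1747 and 1255 CPM (2.05-fold, log2 fold change 1.04 ± 0.14, adjusted p = 0.000993). Tumor M-MDSC held 699.9, 667, 656 and 478 and 1356, 2092 and 1768 CPM (2.77-fold, log2 fold change 1.47 ± 0.24, adjusted p = 0.0174), again without overlap. This last call was lost without any untreated library or treated library 3 (adjusted p 0.0504 to 0.0721), and that in tumor PMN-MDSC without untreated library 3 (0.0504).

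**Figure D3:**
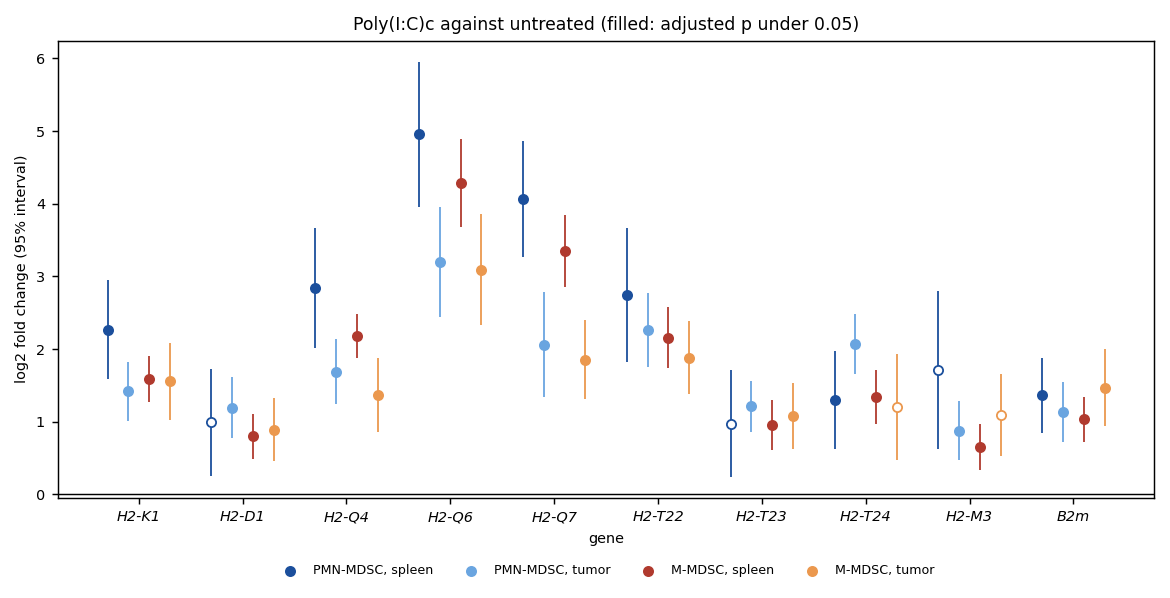
Log2 fold change of each member between poly(I:C)c-treated and untreated libraries in 4 MDSC populations, with 95% intervals; filled circles passed an adjusted p under 0.05. All 40 values lie above 0, H2-Q6 stands highest in each population, and 5 values were not called.

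The heavy chains rose by different factors, and non-classical genes took a larger share of MHC-I transcripts after treatment in 3 populations. Non-classical genes made up 24.5, 20.9, 21.6 and 21.9% of the FPKM of all 9 heavy chains in untreated splenic PMN-MDSC and 28.2, 34.9 and 31.6% in treated ones. The means were 22.2 ± 1.60% and 31.6 ± 3.32% (SD, n = 4 and 3), without overlap. Tumor PMN-MDSC went from 19.5 ± 0.430% (n = 4) to 28.1 ± 4.37% (n = 4) and splenic M-MDSC from 20.8 ± 0.356% (n = 4) to 31 ± 0.832% (n = 4), also without overlap. In tumor M-MDSC the means were 20.0 ± 2.24% (n = 4) and 25.3 ± 3.67% (n = 3), and treated library 2, at 22.4%, lay inside the untreated range. H2-Q6 and H2-Q7 together went from 1.10 ± 0.282% to 9.23 ± 1.96% in splenic PMN-MDSC, from 5.07 ± 0.563% to 12.1 ± 4.45% in tumor PMN-MDSC, from 1.52 ± 0.405% to 9.29 ± 1.25% in splenic M-MDSC and from 3.63 ± 0.556% to 8.62 ± 2.88% in tumor M-MDSC. These shares are descriptions without a test.

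Within the classical pair the balance moved toward H2-K1. The ratio of H2-K1 to H2-D1 in FPKM was 0.256, 0.191, 0.178 and 0.198 in untreated splenic PMN-MDSC and 0.457, 0.484 and 0.509 in treated ones. Its mean went from 0.648 ± 0.0448 to 0.753 ± 0.0215 in tumor PMN-MDSC, from 0.426 ± 0.0147 to 0.735 ± 0.0399 in splenic M-MDSC and from 0.526 ± 0.0722 to 0.838 ± 0.148 in tumor M-MDSC, without overlap in any population. B2m per heavy chain, the ratio of its FPKM to that of all 9 heavy chains, had no common direction. It was 0.685 ± 0.129 and 0.598 ± 0.0607 in splenic PMN-MDSC, 1.0005 ± 0.235 and 0.797 ± 0.0650 in tumor PMN-MDSC, 0.947 ± 0.115 and 0.793 ± 0.0897 in splenic M-MDSC, and 0.830 ± 0.0890 and 0.967 ± 0.215 in tumor M-MDSC, untreated and treated, with overlapping libraries each time. The size of this ratio rests on the exon lengths, since taken from CPM it was 0.194 to 0.318 over the MDSC groups.

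**Figure D4:**
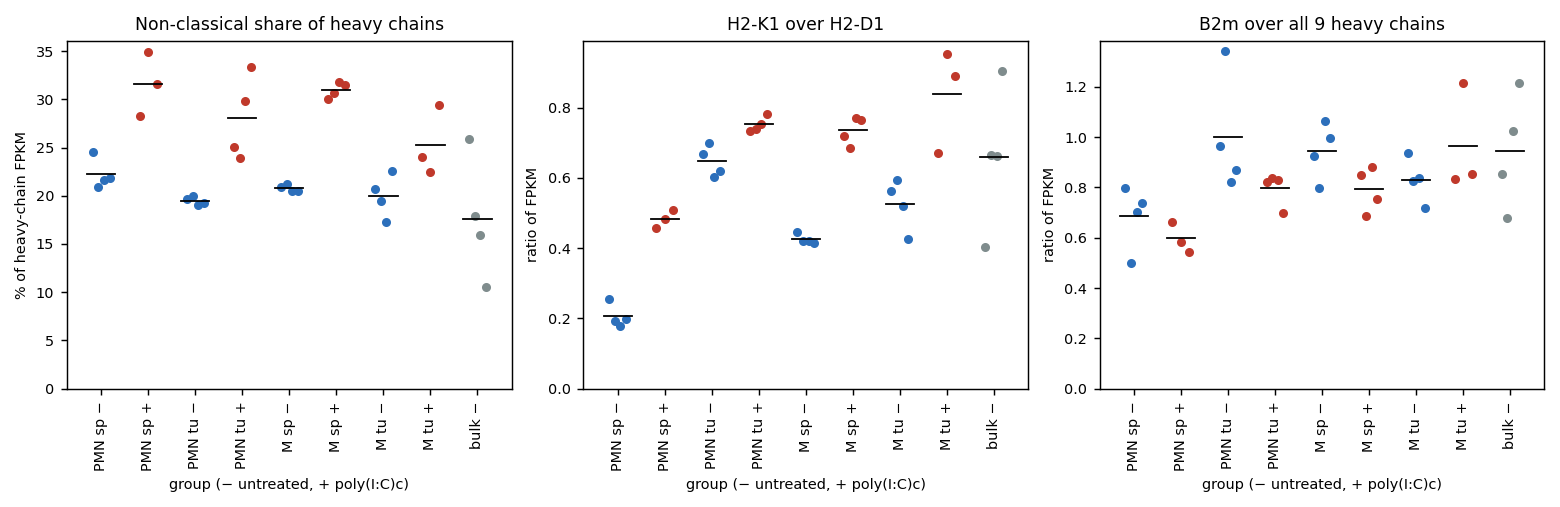
Share of non-classical genes in heavy chain FPKM, ratio of H2-K1 to H2-D1 and ratio of B2m to all heavy chains, by library; blue is untreated, red treated, grey bulk tumor, and the bar is the group mean. The share of non-classical genes and the H2-K1 ratio stand higher in treated libraries, with 1 treated tumor M-MDSC library inside the untreated range for the share, while the B2m ratios overlap.

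To ask whether the members differed between compartments before treatment, tumor and spleen of untreated mice were compared. In PMN-MDSC the class I genes moved in opposite directions, with 4 of 10 higher in tumor (all genes 29.4%) and 3 lower (all genes 29.7%), shares near those of all genes. H2-T24 showed the largest difference, 27.5, 37.0, 40.7 and 47.0 CPM in tumor against 273, 611, 383 and 353 in spleen, a log2 fold change of -3.23 ± 0.26 (adjusted p = 8.94e-06). H2-T23 (log2 fold change -1.17 ± 0.26, adjusted p = 0.00282) and H2-D1 (log2 fold change -1.10 ± 0.28, adjusted p = 0.0061) were also lower in tumor. H2-Q7 was higher in tumor, with 102, 71.2, 99.3 and 80.6 CPM against 30.6, 37.4, 21.4 and 19.9 (log2 fold change 1.87 ± 0.24, adjusted p = 0.000102), and so were H2-Q6 (log2 fold change 1.35 ± 0.27, adjusted p = 0.00149), H2-M3 (log2 fold change 1.12 ± 0.39, adjusted p = 0.027) and H2-K1 (log2 fold change 0.59 ± 0.23, adjusted p = 0.0488). The last 2 overlapped between compartments. H2-K1 lost its call without any single library except spleen library 2 (adjusted p 0.0563 to 0.146) and H2-M3 without tumor library 1 or spleen library 2, 3 or 4 (0.0538 to 0.0701). H2-Q4 (log2 fold change 0.52 ± 0.27, adjusted p = 0.114) was called, among the alternatives run, only without spleen library 2 (0.91, adjusted p = 0.000699) or with upper-quartile scaling (0.69, 0.0371). H2-T22 (log2 fold change -0.41 ± 0.20, adjusted p = 0.0966) and B2m (log2 fold change -0.08 ± 0.19, adjusted p = 0.73, 95% interval -0.49 to 0.33) were not called. All 11 neutrophil markers were lower in these tumor libraries, 6 of 8 macrophage and 5 of 7 monocyte markers were higher and 1 of each lower, 2 of 2 erythroid markers tested were lower, Ighm was lower and Cd4 higher, and epithelial markers summed to 123 to 736 CPM against 0.403 to 3.598 in spleen. Their part in the differences was not tested.

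In untreated M-MDSC 3 of 10 were higher in tumor (all genes 15.7%) and 1 lower (all genes 12.7%). H2-Q7 stood at 72.8, 71.2, 68.6 and 71.9 CPM in tumor and 28.9, 23.6, 24.7 and 27.3 in spleen (log2 fold change 1.44 ± 0.13, adjusted p = 8.31e-06). H2-Q6 (log2 fold change 1.22 ± 0.28, adjusted p = 0.00627) and H2-Q4 (log2 fold change 0.86 ± 0.15, adjusted p = 0.00108) were higher as well, and none of the 3 overlapped. H2-T24 was lower in tumor, 61.8, 62.0, 38.4 and 56.5 CPM against 117, 130.2, 94.8 and 97.6 (log2 fold change -1.03 ± 0.18, adjusted p = 0.00119). The difference of H2-D1 was 0.01 (95% interval -0.25 to 0.27) and that of B2m -0.08 (-0.38 to 0.22). H2-K1 (log2 fold change 0.32 ± 0.15, adjusted p = 0.13) was called without tumor library 4 (0.44, adjusted p = 0.00973). Here too 6 of 8 macrophage markers were higher in tumor, as were 2 of 7 monocyte markers and all 3 epithelial markers tested (summed level 98.5 to 321 CPM against 0.874 to 8.80 in spleen), and 2 of 2 B cell markers and the 1 erythroid marker tested, Hba-a1, were lower. Of the 8 neutrophil markers tested 6 were lower and 1, Mmp9, was higher. Their part in the differences was not tested.

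The 2 cell types of untreated mice were then set against each other. In spleen M-MDSC held less H2-T24 than PMN-MDSC (117, 130.2, 94.8 and 97.6 against 273, 611, 383 and 353 CPM, log2 fold change -1.66 ± 0.20, adjusted p = 0.000105), less H2-D1 (log2 fold change -0.93 ± 0.23, adjusted p = 0.00514) and less H2-T23 (log2 fold change -0.70 ± 0.23, adjusted p = 0.0232), and more H2-M3 (38.5, 37.4, 29.4 and 36.1 against 28.9, 11.5, 8.47 and 9.58 CPM, log2 fold change 1.39 ± 0.38, adjusted p = 0.00931). These are 3 of 10 lower and 1 higher, where 30.9% of all genes were lower and 33.4% higher. With upper-quartile scaling 2 were lower and 2 higher. Between the cell types 5 of 10 members did not overlap, namely H2-T24, H2-D1, H2-T23, H2-M3 and B2m, the last not called. B2m held 620 to 683 CPM in M-MDSC and 718 to 1085 in PMN-MDSC. The share of all genes without overlap was not computed for this comparison. The call of H2-T23 was lost without M-MDSC library 1, 3 or 4 (adjusted p 0.0626 to 0.0820) and with upper-quartile scaling (0.120). Without PMN-MDSC library 2, H2-K1 was called higher (0.37, adjusted p = 0.0170). In tumor 1 member was called lower in M-MDSC (all genes 7.25% lower) and 0 higher (5.73%). This was H2-Q6, with 30.6, 23.7, 33.9 and 34.7 CPM in M-MDSC and 46.9, 42.5, 53.6 and 46.6 in PMN-MDSC (log2 fold change -0.66 ± 0.18, adjusted p = 0.0315). The call was lost without M-MDSC library 1, 2 or 3 or PMN-MDSC library 3 or 4 (adjusted p 0.0523 to 0.101), without a filter on low counts (0.137) and when H2-Q6 and H2-Q7 were summed (0.0658). Markers that do not define either sort moved too. In spleen 6 of 8 macrophage markers, 2 of 5 B cell markers tested, 2 of 2 erythroid markers tested, Itgax and Pecam1 were lower in M-MDSC, and in tumor 6 of 8 macrophage markers, Itgax, Pecam1 and Cd4. Their part in the differences was not tested.

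**Figure D5:**
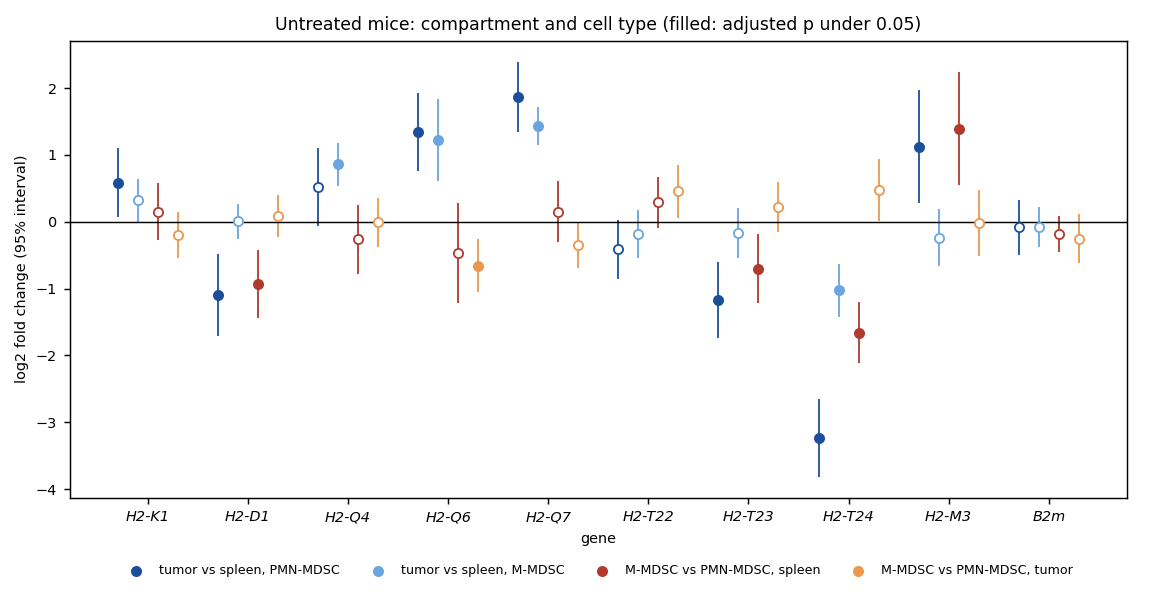
Log2 fold change of each member between tumor and spleen and between M-MDSC and PMN-MDSC of untreated mice, with 95% intervals; filled circles passed an adjusted p under 0.05. H2-T24 is lowest in tumor PMN-MDSC against spleen, H2-Q6 and H2-Q7 are higher in tumor in both cell types, and B2m lies near 0 in all 4 comparisons.

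Bulk tumor held less of almost every member than the MDSC sorted from tumor. Against tumor PMN-MDSC 9 of 10 were lower (33.3% of all genes lower, 36.1% higher), and against tumor M-MDSC 9 of 10 (31% lower, 38.2% higher), with 0 higher. The median over all genes was 0.17 on the log2 scale against M-MDSC. Markers of epithelial tumor cells summed to 4343 to 6446 CPM in bulk tumor, against 123 to 736 in tumor PMN-MDSC and 98.5 to 321 in tumor M-MDSC, all 5 fibroblast markers were higher in both comparisons, and 7 of 8 macrophage markers were lower and 1 higher in each. Their part in the differences was not tested. In bulk samples, fewer cells of a type and less RNA per cell cannot be told apart. H2-K1 stood at 37.8, 261, 242 and 566 CPM in the 4 bulk libraries, H2-D1 at 82.4, 344, 321 and 549.8 and B2m at 44.4, 158, 217 and 474. Bulk library 1 was lowest for all 10 members. H2-Q4 (5.14 to 15.3 CPM), H2-Q6 (1.67 to 6.66), H2-Q7 (2.44 to 20.9), H2-T24 (0.900 to 6.13) and H2-M3 (2.06 to 6.36) were at log2 fold changes of -3.51, -3.46, -3.37, -3.80 and -2.94 against tumor PMN-MDSC, all called. H2-T23 was at -1.45 and -1.61 against the PMN-MDSC and M-MDSC, and H2-T24 at -4.21 against the latter. Of the classical genes and B2m, H2-D1 was at -1.94 ± 0.45 (adjusted p = 0.00317), H2-K1 at -1.72 ± 0.63 (0.0363) and B2m at -1.89 ± 0.59 (0.0183) against PMN-MDSC, and -1.97 ± 0.44 (0.00181), -1.46 ± 0.59 (0.0478) and -1.58 ± 0.55 (0.0251) against M-MDSC.

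H2-T22 was the member that was not called, at 17.2, 43.9, 36.4 and 52.8 CPM in bulk tumor against 33.4, 33.7, 33.6 and 47.0 in tumor PMN-MDSC (log2 fold change -0.18 ± 0.30, adjusted p = 0.619, 95% interval -0.84 to 0.49) and 52.5, 47.5, 47.9 and 61.7 in tumor M-MDSC (log2 fold change -0.57 ± 0.29, adjusted p = 0.105, 95% interval -1.21 to 0.08). The calls of H2-K1 were lost without bulk library 2 or 3 in both comparisons (adjusted p 0.0943 to 0.126), without PMN-MDSC library 1, 3 or 4 (0.0545 to 0.0647) and without each of the 4 M-MDSC libraries in turn (0.0539 to 0.0930). They were also lost with upper-quartile scaling (0.0847 and 0.0901), without a filter on low counts (0.190 and 0.251), with at least 10 counts in every library (0.0760 and 0.0968) and, against M-MDSC, with RLE scaling (0.0547). B2m lost its calls without bulk library 2 or 3 (0.0517 to 0.0706) and without a filter (0.120 and 0.183). Against M-MDSC its call was lost as well without M-MDSC library 3 (0.0518), with upper-quartile scaling (0.0522) and with at least 10 counts in every library (0.0523). With bulk library 1 left out H2-K1 was at -1.30 and -0.96 and B2m at -1.50 and -1.11, and 9 members were called in each comparison. The share of non-classical genes in bulk tumor was 17.6 ± 6.33% and the ratio of H2-K1 to H2-D1 0.658 ± 0.204 (SD, n = 4), beside 19.5 ± 0.430% and 0.648 ± 0.0448 in untreated tumor PMN-MDSC and 20.0 ± 2.24% and 0.526 ± 0.0722 in untreated tumor M-MDSC.

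Whether treatment acted differently between compartments or cell types was tested with an interaction term. In PMN-MDSC H2-Q7 rose less in tumor than in spleen (difference of log2 fold changes -2.00 ± 0.49, adjusted p = 0.0335), 1 of 10 members, where 0.336% of all genes were called lower and 3.17% higher. In M-MDSC H2-Q7 again rose less in tumor (-1.48 ± 0.33, adjusted p = 0.0489), 1 of 10, against 0.561% of all genes lower and 0.229% higher. H2-Q7 started higher in tumor, as given above, and its treated levels were 449 ± 205 CPM in spleen and 379 ± 195 in tumor of PMN-MDSC and 272 ± 73.4 and 258 ± 94.6 in M-MDSC (SD, n = 3, 4, 4 and 3). Both calls were lost when H2-Q6 and H2-Q7 were summed (adjusted p = 0.0507 and 0.0783). Of the 15 libraries of each cell type, left out in turn, 4 left the call in PMN-MDSC in place (untreated library 2 and treated library 1 of spleen, and treated library 3 and 4 of tumor), and 3 the call in M-MDSC (treated library 1 of spleen and treated library 1 and 3 of tumor). The other adjusted p ran from 0.0513 to 0.0881 in PMN-MDSC and up to 0.111 in M-MDSC. For H2-Q6 this difference was -1.75 (adjusted p = 0.1) in PMN-MDSC and -1.18 (0.228) in M-MDSC. Between M-MDSC and PMN-MDSC 0 members were called in spleen (all genes 6.45% higher, 4.41% lower) and 0 in tumor (0.0239% and 0%). At an unadjusted p under 0.05 these counts were 2 in spleen (H2-K1 and H2-M3) and 1 in tumor (H2-T24), and DESeq2 called 0 in both.

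Genes that load MHC-I moved with the heavy chains in some populations. Of 20 genes of the loading and control pathway, 5 were called higher in splenic PMN-MDSC, 3 in tumor PMN-MDSC, 12 in splenic M-MDSC and 0 in tumor M-MDSC, where 6.10%, 2.29%, 10.7% and 1.82% of all genes were called higher, and 0 were called lower in any. At an unadjusted p under 0.05 the count in tumor M-MDSC was 3. Tap1, a chain of the peptide transporter, had log2 fold changes of 1.78 ± 0.33 (0.0136), 1.07 ± 0.16 (0.00341), 1.20 ± 0.17 (0.0012) and 0.85 ± 0.22 (0.0657), with SE and adjusted p, in splenic and tumor PMN-MDSC and splenic and tumor M-MDSC. For Nlrc5, the transactivator of class I genes, they were 1.99 ± 0.46 (0.027), 0.68 ± 0.16 (0.0413), 1.08 ± 0.25 (0.0165) and 0.29 ± 0.22 (0.538). For Tapbp, which holds empty heavy chains at the transporter, they were 0.84 ± 0.22 (0.0442), 0.41 ± 0.14 (0.162), 0.98 ± 0.18 (0.00481) and 0.52 ± 0.18 (0.153), and for the immunoproteasome subunit Psmb8 0.89 ± 0.29 (0.0818), 0.46 ± 0.17 (0.174), 0.70 ± 0.19 (0.0287) and 0.33 ± 0.24 (0.511). Psmb9, another immunoproteasome subunit, was called higher in the first 3 populations. Of 28 further class I-like genes only 4 to 6 were abundant enough to test in a population. H2-Q5 was called higher in splenic and tumor PMN-MDSC and in splenic M-MDSC, and H2-T10, which shares sequence with H2-T22, in tumor PMN-MDSC and in both M-MDSC populations. H2-M2 was called higher in tumor PMN-MDSC. Fcgrt, the neonatal Fc receptor, was called lower in both splenic populations and Hfe, which regulates iron uptake, in splenic PMN-MDSC. In all 1 of 4 tested was higher and 2 lower in splenic PMN-MDSC, 3 of 6 higher in tumor PMN-MDSC, 2 of 5 higher and 1 lower in splenic M-MDSC and 1 of 5 higher in tumor M-MDSC. In untreated PMN-MDSC 6 pathway genes were higher in tumor than in spleen (all genes 29.4%) and 3 lower (29.7%), and in M-MDSC 4 were higher (15.7%) and 0 lower (12.7%), each of the 20 tested. Bulk tumor held 11 lower (33.3%) and 4 higher (36.1%) against tumor PMN-MDSC and 12 lower (31%) and 3 higher (38.2%) against tumor M-MDSC.

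Over the 30 MDSC libraries, which share treatment and compartment, the members fell into patterns described by Pearson's r of log2(CPM + 1). H2-Q6 and H2-Q7 (0.975), H2-Q4 and H2-Q6 (0.974) and H2-K1 and H2-Q4 (0.968) were most alike, and H2-D1 and H2-T23 formed a second pair (0.959), with H2-T24 near them (0.880 and 0.893). H2-T24 and H2-M3 were least alike (0.032). Among 8536 other genes, those most like B2m were Ifit3 (0.910), Oasl1 (0.902), Rsad2, Vipas39 and Irf7. Those most like H2-K1 were Ifit2 (0.901), Isg15, Ifi208, Oasl1 and H2-T10, and those most like H2-T24 were Trim34a (0.975), Oas1b (0.970), Oas3, Cmpk2 and Adar. The H2-Q genes share sequence, as given above, and the part of shared reads in these values was not tested.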

How the data were processed

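RNA was sequenced from sorted PMN-MDSC and M-MDSC and from bulk tumor after stranded total RNA library preparation without molecular identifiers, so that counts include PCR copies. The authors aligned reads to mm10 (GRCm38) with ContextMap and BWA and counted fragments by strand per gene of Gencode v16 with featureCounts of Subread 1.4.6-p3. The deposited table holds raw counts per gene and library, with 793070 to 8886115 counts in the 34 libraries used. A library with 10 counts was left out. Groups were taken from the labels, and columns were matched to groups by name.

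The 10 members were matched by Ensembl identifier, and symbols and exon lengths came from GENCODE M21 (53274 of 53379 identifiers). From the counts, CPM with TMM scaling over the 34 libraries and FPKM were computed here and serve for levels, while fold changes come from each comparison's own fit. Tests used the edgeR quasi-likelihood F-test, two-sided, on all genes that reached 25 counts on average in the libraries tested (edgeR 4.0.16, R 4.3.3), with Benjamini-Hochberg adjustment over all of them and calls at 0.05. Alternatives were DESeq2 1.42.0, RLE and upper-quartile scaling, other filters on low counts, the study's threshold, a fit over 4 groups, summed H2-Q6 and H2-Q7, and each library left out. The procedure was tested on simulated data. No pair of libraries within a group held identical counts (48 pairs compared).

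The members, the 20 pathway genes, the 28 class I-like genes and the marker lists were chosen with earlier results of these data known. The text names all members, 4 pathway genes by role (Tap1, Tapbp, Psmb8, Nlrc5) and the 5 genes most like B2m, H2-K1 and H2-T24. Psmb9, H2-Q5, H2-T10, H2-M2, Fcgrt and Hfe were named after their values were seen, and so were the single marker genes named for their calls. Promoter windows came from RefSeq (GRCm38.p6).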

Additional observations from a re-analysis of the deposited data

Results flagged for a closer look

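Within groups of 4 libraries, 6 of 70 sets of member values held 1 library far from the other 3 by Dixon's test at the 95% level, where chance gives about 1 in 20. In untreated splenic PMN-MDSC, library 2 held 939 CPM of H2-K1 (469 to 510.2 in the others) and 155 CPM of H2-Q4 (64.5 to 70.7), and library 1 held 28.9 CPM of H2-M3 (8.47 to 11.5). In treated tumor PMN-MDSC, library 4 held 2607 CPM of H2-K1 (1997 to 2051) and 2924 CPM of H2-D1 (2358 to 2434). In untreated tumor PMN-MDSC, library 4 held 47.0 CPM of H2-T22 (33.4 to 33.7).

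The effect of treatment on H2-Q7 differed between compartments by the interaction term in both cell types. The rise in tumor less that in spleen was -2.00 on the log2 scale in PMN-MDSC and -1.48 in M-MDSC. Both calls were lost when reads of H2-Q6 and H2-Q7 were summed.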

How the results depend on the processing

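Over 102 member fold changes, no called value changed sign under any alternative run. With the study's threshold on edgeR values, 0 and 3 members passed for treatment in splenic and tumor PMN-MDSC. In splenic and tumor M-MDSC 7 and 0 passed. For tumor against spleen the counts were 2 and 1 in PMN-MDSC and M-MDSC, and for M-MDSC against PMN-MDSC 1 and 0 in spleen and tumor. Bulk tumor had 5 against PMN-MDSC and 6 against M-MDSC, and the H2-Q7 interactions had 0 in both cell types. The share of all genes past this threshold was computed for the treatment comparisons alone. For M-MDSC against PMN-MDSC in tumor the count was also 0 without a filter on low counts and with H2-Q6 and H2-Q7 summed. The interaction count in PMN-MDSC was 3 without a filter, 2 with DESeq2, and 0 with at least 10 counts in every library or with the summed genes. In M-MDSC it was 2 without a filter, and 0 with upper-quartile scaling or the summed genes.

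With 1 library left out, the counts ran from 6 to 9 and 8 to 10 for treatment in splenic and tumor PMN-MDSC and from 10 to 10 and 3 to 9 in splenic and tumor M-MDSC. They ran from 5 to 7 and 4 to 5 for tumor against spleen in PMN-MDSC and M-MDSC, from 3 to 5 and 0 to 1 for M-MDSC against PMN-MDSC in spleen and tumor, and from 7 to 9 for bulk tumor against either. Interaction counts ran from 0 to 2 between compartments in both cell types, from 0 to 4 between cell types in spleen and from 0 to 0 in tumor. No paired analysis was possible because the columns carry no mouse number that would tie them to the numbered samples without relying on column order. The groups of the columns run in the same order as those of the sample titles. This order was not used, so differences within a mouse were not tested.

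Values that turned direction belonged to no call. With upper-quartile scaling these were 0.086 for B2m between compartments in PMN-MDSC, -0.14 for H2-D1 between compartments in M-MDSC, 0.058 for B2m between cell types in spleen, 0.00017 for H2-M3 between cell types in tumor and 0.14 for H2-T22 in bulk tumor against PMN-MDSC. H2-D1 in M-MDSC was at -0.0036 with DESeq2, -0.0057 with RLE scaling and -0.056 with at least 10 counts in every library. H2-T22 in bulk tumor was at 0.087 with the latter and 0.061 without a filter, where H2-Q4 and H2-M3 between cell types in tumor were at 0.041 and 0.057. With summed reads H2-Q7 between cell types in spleen was at -0.098. With 1 library left out, the values of these genes ran from -0.14 to 0.060 for B2m between compartments in PMN-MDSC and from -0.15 to 0.024 in M-MDSC, and from -0.038 to 0.053 for H2-D1 in M-MDSC. Between cell types in spleen they ran from -0.43 to 0.026 for H2-Q4 and from -0.011 to 0.26 for H2-Q7, and in tumor from -0.12 to 0.077 for H2-Q4 and from -0.14 to 0.11 for H2-M3. For H2-T22 in bulk tumor they ran from -0.38 to 0.11. Upper-quartile scaling moved the median of all genes by more than 0.1, to -0.16 for treatment in splenic PMN-MDSC, 0.17 and -0.13 for tumor against spleen in PMN-MDSC and M-MDSC, 0.33 between cell types in spleen, 0.39 and 0.38 for bulk tumor and 0.16 for the difference in treatment effect between cell types in spleen. The call of H2-K1 in tumor against spleen of PMN-MDSC was also lost with RLE scaling (adjusted p = 0.0503) and without a filter (0.0619). Groups of 3 or 4 libraries and bulk levels of a few CPM limit the precision.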
